A study of Mus musculus with 71 samples.

Results

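The genes examined were 9 that code for subunits of Polycomb repressive complex 1 (PRC1), namely the chromobox genes Cbx2, Cbx6, Cbx7 and Cbx8, the E3 ligase genes Ring1 and Rnf2, the Polycomb group RING finger genes Pcgf6 and Bmi1, and the polyhomeotic gene Phc1. They were chosen by name, with their RNA levels and the H3K27me3 peaks within 2 kb of their starts. RefSeq accessions were matched to gene symbols, and the 9 genes accounted for 12 of the 34010 accessions listed. Phc1 had 4 accessions and each of the other genes had 1.

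The cells were mouse embryonic stem cells (mESCs) of the R1 line, grown with LIF and serum, either wild type (WT) or with a CRISPR/Cas9 knockout of 3 genes for linker histones, H1c, H1d and H1e (H1-TKO). The number of knockout clones is not given in the sources used here. Poly(A) RNA-seq had 2 libraries per genotype, and H3K27me3 ChIP-seq had 1 peak list per genotype. The comparison asks how the RNA and the H3K27me3 of these genes differ in cells with less linker histone H1.

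PRC1 places ubiquitin on a lysine of histone H2A (H2AK119) through RING1 or RNF2, each paired with a PCGF protein. In canonical PRC1 a chromobox (CBX) protein binds H3K27me3, the mark made by PRC2, and a polyhomeotic protein joins complexes to each other. Variant PRC1 holds RYBP or YAF2 in place of a chromobox protein. Cbx7 is known as the main chromobox gene of mESCs, and Cbx2 and Cbx8 are known to be repressed there and to rise on differentiation.

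The genotype of the RNA-seq libraries is the one given by the names and columns of the deposited tables. The titles of all 4 samples say the reverse. Every table equalled 1 per-library column of the same genotype name in the study's source data, in 100% of the 1999 rows read and within a relative tolerance of 0.001. Under the sample titles every RNA direction given here and in the plots would be reversed. The knocked-out genes do not settle the matter. All 3 had lower mean normalized counts in the libraries that the tables name H1-TKO, at few reads and with no limma call, but so had Hist1h1a and Hist1h1b, linker histone genes that were not knocked out. Hist1h1d (H1d) had 3.88 and 41.4 (WT) against 1.10 and 0 (H1-TKO) normalized counts, without overlap (log2 fold change −3.31, limma adjusted p = 0.105, and 0.029 in DESeq2). Hist1h1e (H1e), under the filter, had 5.43 and 19.6 against 0 and 2.11, and Hist1h1c (H1c) overlapped at 11.6 and 56.7 against 18.7 and 7.37 (limma adjusted p = 0.39). Hist1h1b had 6.21 and 44.7 against 0 and 2.11 (log2 fold change −3.36, limma adjusted p = 0.0834, and 0.0225 in DESeq2), and Hist1h1a overlapped (log2 fold change −1.05, limma adjusted p = 0.417). The growth protocol of the RNA-seq samples describes HeLa cells, but Pou5f1, a core pluripotency gene, stood between 2586 and 5110 normalized counts in the 4 libraries.

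A normalized count is a read count divided by a size factor of its library. The 4 libraries held between 6951619 and 10538507 recovered reads, and in WT replicate 2 a single accession, NR_046233, took 11.8% of all normalized counts against 1.98 to 2.08% in the others. Nothing beyond the study's own statement gives the libraries as separate cultures, so p-values measure the spread between these libraries. In bulk RNA, fewer cells of a type and less RNA per cell cannot be told apart. limma was fitted to log2(normalized count + 1) over the 11113 accessions with a mean of at least 10, and a call is an adjusted p (Benjamini-Hochberg) under 0.05.

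Per kb of the longest annotated coding transcript, the order of the RNA levels was the same in both genotypes. In WT mESCs Rnf2 was highest at 565 normalized counts per kb, followed by Pcgf6 (338), Cbx7 (309), Cbx6 (174), Cbx2 (131), Ring1 (47.7), Bmi1 (20.2), Phc1 (16.7) and Cbx8 (2.15). In H1-TKO mESCs the levels ran from 622 normalized counts per kb for Rnf2 to 0.616 for Cbx8. Neighbours in this order did not overlap between their 2 libraries in either genotype, with the closest pair in WT being Bmi1 at 18.8 to 21.6 and Phc1 at 14.7 to 18.6 normalized counts per kb. The level of Phc1 may not cover the whole gene, as described with that gene.

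**Figure D1:**
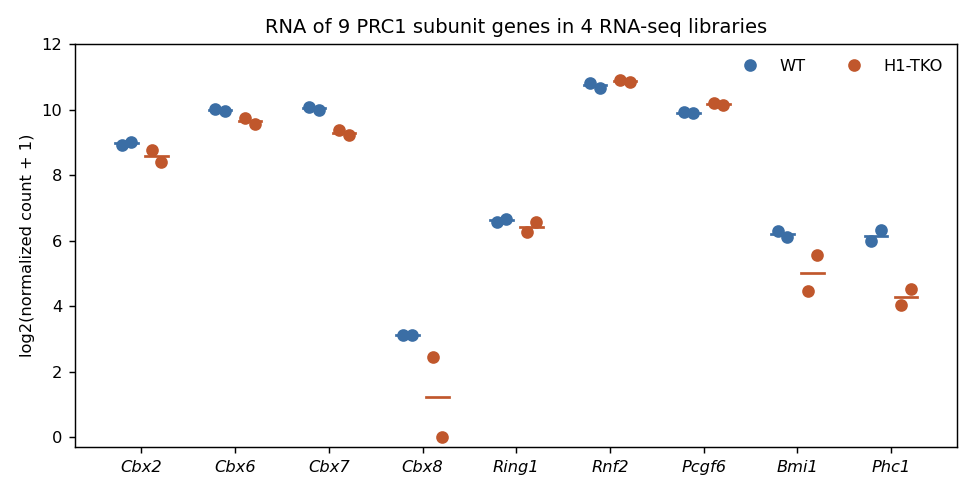
RNA of the 9 PRC1 subunit genes on the y axis as log2(normalized count + 1), with 1 point per library, a line at the mean of each genotype, and genotypes named as in the tables. The WT points lie above the H1-TKO points for 7 genes and below them for Rnf2 and Pcgf6, with the widest gaps at Cbx8, Bmi1 and Phc1.

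Cbx7, on the minus strand of chr15:79746237-79801549, was lower in H1-TKO mESCs and was the only one of the 3 chromobox genes tested to pass. It had 1083 and 1009 (WT) against 662 and 593 (H1-TKO) normalized counts. The genotypes did not overlap, and the log2 fold change was −0.74 (SE 0.15, 95% interval −1.08 to −0.39, limma adjusted p = 0.016), which is 1.67-fold lower. The call was lost when either of the H1-TKO libraries was left out (adjusted p = 0.118 and 0.211) and with limma without a trend (0.085). With the genotype names of the sample titles Cbx7 would be 1.67-fold higher.

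Cbx6, which lies on chromosome 15 near Cbx7 and codes for a chromobox protein less studied in mESCs, did not pass the test. Its normalized counts were 1036 and 990.4 (WT) against 860.5 and 749 (H1-TKO). The log2 fold change was −0.33 (SE 0.15, 95% interval −0.68 to 0.01, limma adjusted p = 0.14), and without WT replicate 1 or 2 the adjusted p was 0.0224 or 0.00486. Exons of the gene model Npcd overlap those of Cbx6 on the same strand by up to 660 bases, so reads there could belong to either. Within each library the ratio of Cbx7 to Cbx6 normalized counts was 1.05 and 1.02 in WT and 0.77 and 0.792 in H1-TKO, a quantity that no scaling of libraries alters.

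Cbx2, whose product compacts chromatin, had 480 and 518 (WT) against 431 and 335 (H1-TKO) normalized counts. The groups did not overlap, but the difference did not pass the test (log2 fold change −0.39, 95% interval −0.84 to 0.05, limma adjusted p = 0.175, or 0.0108 without WT replicate 1). The median log2 fold change of its chromosome, 11, was −0.37, and the value for Cbx2 less that median was −0.018. A fit with the chromosome's median level removed from each library gave 0.069 for Cbx2 (limma adjusted p = 0.839). Cbx8, a chromobox gene that is low in mESCs, was under the filter at 7.76, 7.63, 4.41 and 0 normalized counts, or 10, 7, 4 and 0 reads. In the last library, H1-TKO replicate 2, a count of 0 allows up to 3.16 normalized counts. The genotypes did not overlap, but with no filter on low values the difference did not pass the test (log2 fold change −1.90, SE 0.98, unadjusted p = 0.096, limma adjusted p = 0.282), and at so few reads its size depends on the pseudocount.

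Of the summed level per kb of Cbx2, Cbx6, Cbx7 and Cbx8, Cbx7 held 51.0% and 49.1% (WT) against 42.7% and 44.7% (H1-TKO). Cbx7 was the largest of the 4 in each library, and Cbx6 was next, at 28.5% and 28.1% against 32.4% and 32.9%. These shares were not tested.

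H3K27me3 was listed at some of the chromobox genes. The peak lists are in mm9, the build of NCBIM37, and each peak has a score that rises as the p-value of the MACS peak caller falls. With a single list per genotype there is no replicate check, and a gene can only be said to have a listed peak or none. The study has a further H3K27me3 ChIP-seq library per genotype, without a peak list here. It also reports ChIP-qPCR of H3K27me3 in both genotypes, and its qPCR primers include a pair for Cbx2. Neither was used here. A peak within 2 kb of any annotated start was listed for 2 of the 9 genes in WT (Cbx2 and Bmi1), against 14.4% of 22363 protein-coding genes. It was listed for 3 of the 9 in H1-TKO (Cbx2, Cbx8 and Bmi1), against 13.1% of the same genes. Cbx6, Cbx7, Ring1, Pcgf6 and Phc1 had none in either list. In WT the 2 genes had 4 peaks in these windows, of which 2 shared no base with an H1-TKO peak, against 35.8% of all 4159 WT peaks in such windows. In H1-TKO the 3 genes had 3 peaks there, of which 1 shared no base with a WT peak, against 28.3% of 3773. Both genes with a WT peak also had an H1-TKO peak within 2 kb, whereas 25.2% of the 3213 protein-coding genes with a WT peak had none. For Cbx2 this depended on the window, since within 1 kb the H1-TKO list held a peak at Cbx8 and Bmi1 but none at Cbx2.

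At Cbx2, on the plus strand with its start at chr11:118884276, WT mESCs had 2 peaks upstream. The nearer one ended 394 bases before the start, had a score of 203.01, above 88.7% of the WT list, and shared no base with an H1-TKO peak. The farther one, chr11:118882026-118882899, had a score of 119.77 and held the single H1-TKO peak, chr11:118882231-118882663, of 433 bases and a score of 69.95. The H1-TKO peak was therefore 1.61 kb from the start and the WT peaks reached to 0.394 kb. The sequence shows the 300 bases just before the Cbx2 start, which lie between these peaks and the gene, on the plus strand of NCBIM37 with CpG dinucleotides in capitals.
Cbx2 before the start, chr11:118883976-118884275: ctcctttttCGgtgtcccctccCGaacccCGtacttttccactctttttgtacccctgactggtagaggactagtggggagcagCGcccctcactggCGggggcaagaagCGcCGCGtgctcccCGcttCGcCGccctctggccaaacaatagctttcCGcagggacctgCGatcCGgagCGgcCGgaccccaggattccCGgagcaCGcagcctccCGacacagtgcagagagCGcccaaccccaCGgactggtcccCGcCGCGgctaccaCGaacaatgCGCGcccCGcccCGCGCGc
This stretch held 31 CpG dinucleotides, and no peak of either list touched it. Among 22366 stretches of 300 bases before the start of a protein-coding gene the median was 10.

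Cbx8 lies 3′ of Cbx2 on the minus strand of the same chromosome, with its main start at chr11:118902283. The peak with the highest score within 5 kb of any of the 9 genes was at its 3′ end, chr11:118895718-118897635 in WT (score 242.63) and chr11:118895702-118897808 in H1-TKO (181.81). It lay just outside the 2 kb window, 2.48 kb (WT) and 2.3 kb (H1-TKO) from the nearest annotated start. H1-TKO mESCs had a further peak, chr11:118899897-118900881, in the gene and over the start of a short transcript, whose score of 57.77 was above 23.8% of its list and which shared no base with a WT peak. WT mESCs had a peak 3.6 kb upstream (58.48) with none in H1-TKO. The centre of the H1-TKO peak, on the minus strand and with CpG in capitals, held 3 CpG dinucleotides.
Cbx8 peak centre, chr11:118900240-118900539: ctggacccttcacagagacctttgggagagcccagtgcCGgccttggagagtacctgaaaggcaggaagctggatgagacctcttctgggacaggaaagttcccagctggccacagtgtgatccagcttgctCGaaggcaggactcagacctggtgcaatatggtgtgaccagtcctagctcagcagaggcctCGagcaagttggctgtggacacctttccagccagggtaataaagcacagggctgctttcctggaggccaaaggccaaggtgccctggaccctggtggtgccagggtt
Neither list therefore placed a high-scoring peak on the Cbx8 start, and the shared peak at its 3′ end carried the highest scores.

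Cbx7, the chromobox gene that was called, had no listed peak, although the 300 bases before its main start, on the minus strand and with CpG in capitals, held 26 CpG dinucleotides, more than 83.6% of the stretches counted above.
Cbx7 before the start, chr15:79763070-79763369: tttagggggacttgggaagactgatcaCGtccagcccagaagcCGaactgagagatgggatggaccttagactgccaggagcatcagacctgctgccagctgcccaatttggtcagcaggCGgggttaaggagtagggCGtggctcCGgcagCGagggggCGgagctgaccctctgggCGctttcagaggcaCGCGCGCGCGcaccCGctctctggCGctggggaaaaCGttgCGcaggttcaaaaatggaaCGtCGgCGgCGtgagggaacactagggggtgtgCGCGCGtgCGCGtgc

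From 5 kb before Cbx2 to 5 kb past Cbx8, the stretch of 28.0 kb held 4 WT peaks covering 4695 bases (16.8%) and 3 H1-TKO peaks covering 3525 bases (12.6%).

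**Figure D2:**
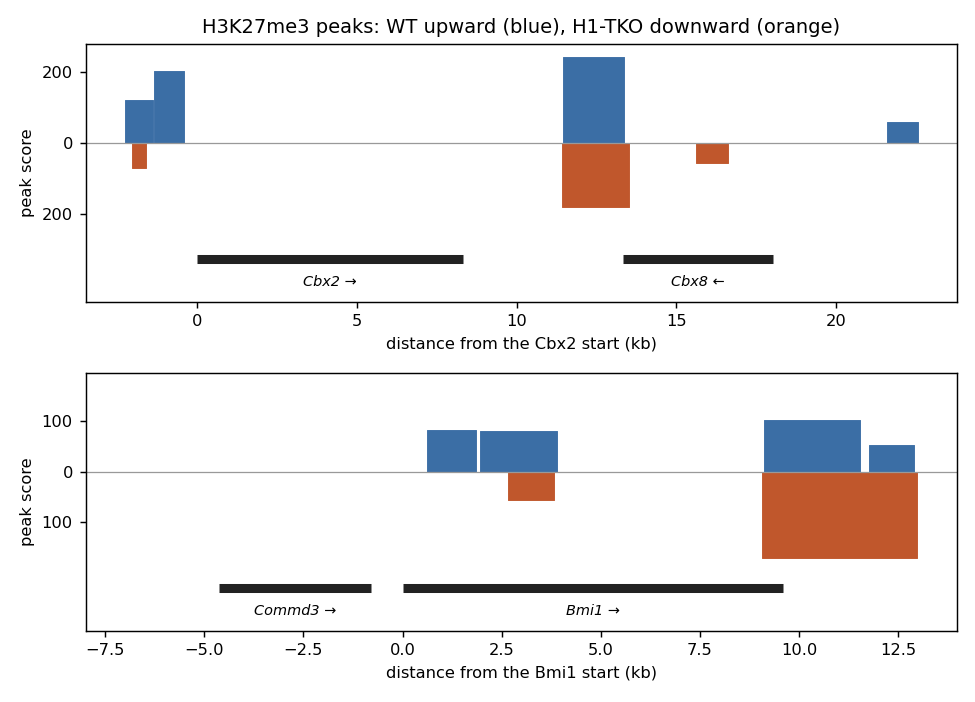
H3K27me3 peaks over Cbx2 and Cbx8 (top) and over Bmi1 (bottom) by distance in kb from the start of Cbx2 or Bmi1, with the width of a bar giving the peak and its height the score, WT upward and H1-TKO downward. The WT bar at 203.01 beside the Cbx2 start has no H1-TKO bar under it, and at the 3′ end of Bmi1 the H1-TKO bar (170.41) is taller than the WT bars (102.47 and 53.68).

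The E3 ligase genes did not pass the test. Rnf2, which codes for the main catalytic subunit RING1B, had 1811 and 1610 (WT) against 1930 and 1836 (H1-TKO) normalized counts. Its log2 fold change of 0.14 (SE 0.13, 95% interval −0.16 to 0.44, limma adjusted p = 0.463) stood against a median of 0.50 on chromosome 1. Less that median it was −0.36, and with the chromosome's median level removed from each library the fit gave −0.27 (limma adjusted p = 0.165). Without WT replicate 1 the adjusted p of Rnf2 was 0.0292. Ring1, its paralog, had 93.9 and 100.3 (WT) against 76.0 and 93.7 (H1-TKO) normalized counts (log2 fold change −0.20, 95% interval −0.88 to 0.48, limma adjusted p = 0.651), so that the genotypes nearly touched. Per kb, Ring1 was 7.72% and 9.28% of Rnf2 in WT and 5.86% and 7.6% in H1-TKO libraries.

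Rnf2 had no peak within 2 kb of its start, but 3 WT and 2 H1-TKO peaks lay within the gene, over 22 kb from the start, and each of the 5 overlapped a coding exon. They were 94 to 242 bases wide, with scores from 58.17 to 124.38. The WT peak of 94 bases, chr1:153325661-153325754, had 93.6% of its bases in exon 2, which is 89 bases long. The peaks over exon 3 had 66.5% (WT) and 63.4% (H1-TKO) of their bases in the exon, and those over exon 6 had 66.9% (WT) and 76.8% (H1-TKO), whereas exons make up 9.64% of the gene. The sequences of 3 of these peaks on the minus strand of NCBIM37, with exon bases in capitals and intron bases in lower case, show where the peaks cross from exon to intron.
WT peak over exon 2, chr1:153325661-153325754: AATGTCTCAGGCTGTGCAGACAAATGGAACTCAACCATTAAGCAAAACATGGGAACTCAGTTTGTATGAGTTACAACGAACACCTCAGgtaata
WT peak over exon 3, chr1:153323962-153324203: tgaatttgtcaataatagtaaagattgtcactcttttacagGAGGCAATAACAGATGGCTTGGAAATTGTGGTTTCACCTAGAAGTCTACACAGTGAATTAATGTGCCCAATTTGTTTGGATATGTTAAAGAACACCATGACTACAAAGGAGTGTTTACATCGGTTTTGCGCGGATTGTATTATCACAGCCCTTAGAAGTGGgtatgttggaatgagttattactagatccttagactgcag
H1-TKO peak over exon 6, chr1:153318717-153318940: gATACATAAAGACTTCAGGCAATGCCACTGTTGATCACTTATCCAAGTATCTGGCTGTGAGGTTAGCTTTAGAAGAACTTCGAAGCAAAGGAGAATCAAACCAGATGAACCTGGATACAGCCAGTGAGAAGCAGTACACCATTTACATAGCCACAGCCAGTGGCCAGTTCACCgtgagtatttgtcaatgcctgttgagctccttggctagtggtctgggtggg
In the WT list 248 peaks were at most 250 bases wide, inside a protein-coding gene and over 2 kb from any start, and 18.1% of them had at least 50% of their bases in coding-gene exons. In the H1-TKO list it was 22.9% of 214. Genes with 2 or more such peaks numbered 4 in WT and 2 in H1-TKO, and Rnf2 was the one gene in both. This comparison was added after the Rnf2 peaks were seen, and what DNA gave rise to the peaks was not tested.

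**Figure D3:**
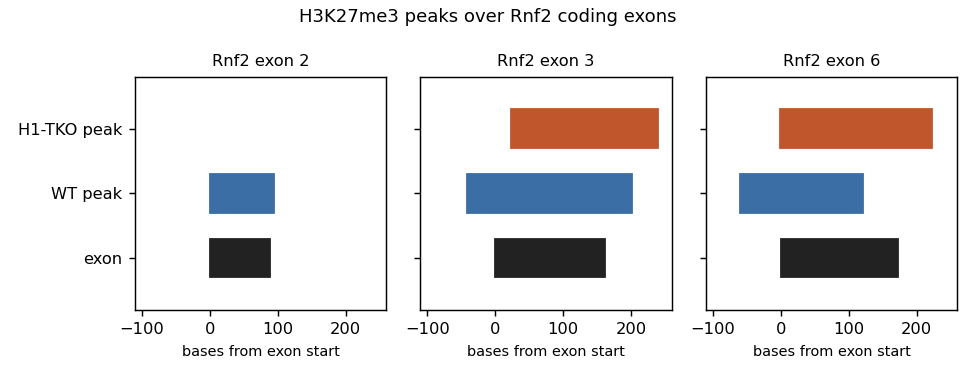
The Rnf2 exons 2, 3 and 6 (black) and the H3K27me3 peaks over them in WT (blue) and H1-TKO (orange), by distance in bases from the exon's first base in the direction of transcription. At exon 2 the WT peak and the exon nearly coincide (94 and 89 bases), and at exons 3 and 6 both lists hold a peak.

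Of the Polycomb group RING finger genes, Pcgf6, whose product belongs to a variant PRC1 with MGA and L3MBTL2, had 970 and 947 (WT) against 1168 and 1119 (H1-TKO) normalized counts. The groups did not overlap, and the log2 fold change of 0.25 did not pass the test (SE 0.13, 95% interval −0.06 to 0.57, limma adjusted p = 0.203, or 0.0269 without WT replicate 1). Bmi1, the PCGF4 subunit of canonical PRC1, had 77.6 and 67.6 (WT) against 20.9 and 46.3 (H1-TKO) normalized counts. Its log2 fold change was −1.19 (SE 0.46, 95% interval −2.27 to −0.10), with an unadjusted p of 0.036 and a limma adjusted p of 0.108. It rested on 19 and 44 reads in the H1-TKO libraries, which lay further apart than the WT libraries. Without H1-TKO replicate 1 the log2 fold change was −0.63 (adjusted p = 0.592) and without H1-TKO replicate 2 it was −1.74 (0.126), whereas without WT replicate 1 or 2 the adjusted p was 0.047 or 0.018.

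Bmi1, on the plus strand of chr2:18598645-18608256, was marked over the first part of the gene and past its 3′ end. In WT mESCs chr2:18599254-18600487 (score 83.01) and chr2:18600607-18602531 (81.56) lay over annotated starts, and only the latter overlapped an H1-TKO peak, chr2:18601308-18602476 (55.87). At the 3′ end the order was the other way, with WT peaks of 102.47 and 53.68 inside an H1-TKO peak of 3916 bases, chr2:18607720-18611635, with a score of 170.41. Within 5 kb of the gene the WT peaks covered 6748 bases (34.4%) and the H1-TKO peaks 5085 bases (25.9%). The centre of the WT peak without an H1-TKO peak held 7 CpG dinucleotides (capitals), against 29 in the 300 bases before the Bmi1 start.
Bmi1 peak centre, chr2:18599721-18600020: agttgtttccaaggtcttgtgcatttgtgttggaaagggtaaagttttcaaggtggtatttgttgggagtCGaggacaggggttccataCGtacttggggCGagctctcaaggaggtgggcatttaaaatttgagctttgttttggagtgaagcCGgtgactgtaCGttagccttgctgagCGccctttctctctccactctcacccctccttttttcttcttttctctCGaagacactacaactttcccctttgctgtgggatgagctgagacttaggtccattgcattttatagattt
The listed peak centre was thus poorer in CpG than the stretch before the start.

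Phc1, a polyhomeotic gene on the minus strand of chr6:122267749-122290579, was lower in H1-TKO mESCs. The accession NM_001271579 had 62.1 and 78.5 (WT) against 15.4 and 22.1 (H1-TKO) normalized counts. The groups were well apart, and the log2 fold change was −1.86 (SE 0.43, 95% interval −2.86 to −0.86, limma adjusted p = 0.025), which is 3.63-fold lower. The other 3 accessions of Phc1 had 0 reads, apart from 1 read in WT replicate 2, so the values rest on reads that were assigned to 1 accession and may not measure the whole gene. The call was lost when either of the H1-TKO libraries was left out (adjusted p = 0.161 and 0.076), without a trend (0.057) and with no filter on low values (0.053).

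Over the 8 genes tested, 2 were called lower in H1-TKO mESCs (Cbx7 and Phc1), against 10.7% of all accessions lower and 20.5% called in either direction. None was called higher by limma, edgeR or DESeq2, against 9.84% of all accessions, and none had a positive change at an unadjusted p under 0.05. Both H1-TKO libraries lay below both WT libraries for 6 of the 8 genes, against 34.2% of accessions, and above them for 2, against 32.2%. Leaving out a library moved these counts together with the share of all accessions called. Without WT replicate 2, the library in which 1 accession took 11.8%, 4 were lower (Cbx6, Cbx7, Bmi1 and Phc1), against 23.1% of accessions, and 0 higher, against 21.5%. Without WT replicate 1 it was 5 lower, against 25.1%, and 2 higher, against 24.1%. Without H1-TKO replicate 1 none of the 8 was called, against 3.57% lower and 1.85% higher, and without H1-TKO replicate 2 none was, against 3.47% and 1.79%. The median log2 fold change of the 8 was −0.36, and that of all accessions −0.03. The 2 called genes had no H3K27me3 peak within 2 kb in either list. The 2 tested genes with a WT peak, Cbx2 and Bmi1, had negative fold changes that did not pass the test.

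**Figure D4:**
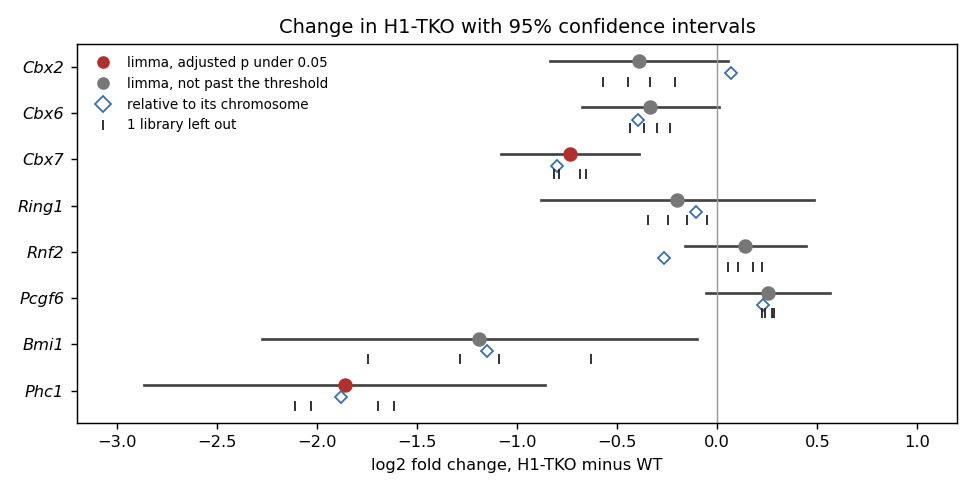
Log2 fold change of the 8 tested genes, H1-TKO minus WT with genotypes as the tables name them, with 95% limma intervals (bars). Diamonds give the value with the chromosome's median level removed from each library, and ticks the values with 1 library left out. Cbx7 and Phc1 (red) pass the threshold, and the diamonds of Cbx2 (0.069) and Rnf2 (−0.27) lie on the other side of 0 from their main values.

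Most neighbours of the called genes were not called themselves. Within 250 kb of the Cbx7 start, 2 of 10 tested accessions of other genes were called lower and 0 higher (median log2 fold change −0.24). Around Phc1 it was 1 of 4 lower, where 10.7% of all accessions were called lower. The single tested neighbour of Bmi1 was Commd3, named here after its values were seen, which ends shortly before Bmi1 on the same strand. Commd3 had 172 and 161 (WT) against 385 and 454 (H1-TKO) normalized counts, and rose by 1.32 on the log2 scale (limma adjusted p = 0.00755). The call was lost without H1-TKO replicate 2 (adjusted p = 0.0904) and without a trend (0.0569).

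Among other subunits and partners, 5 canonical genes were examined, and only Scmh1 was tested. Scmh1, a homolog of the fly gene Sex comb on midleg, had 38.01 and 75.3 (WT) against 31.95 and 40.0 (H1-TKO) normalized counts in its accession NM_013883. The genotypes overlapped, and the difference did not pass with limma, edgeR or DESeq2 (log2 fold change −0.57, 95% interval −1.64 to 0.50, unadjusted p = 0.25, limma adjusted p = 0.398, or 0.0411 without WT replicate 1). The accessions of Pcgf2 reached at most 15.3 normalized counts, those of Phc2 at most 2.11, and those of Phc3 were at 0. Each of these 3 genes has several accessions, as Phc1 does, and such low values may not measure the whole gene.

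Of 26 genes for variant PRC1 subunits, 18 were tested, with 19 accessions, of which 2 were called higher and 3 lower, near the 9.84% and 10.7% of all accessions, and the median log2 fold change was 0.03. Pcgf1, the RING finger subunit of the KDM2B complex, had 56.6 and 51.3 (WT) against 149 and 145 (H1-TKO) normalized counts (log2 fold change 1.43, limma adjusted p = 0.0157). Kdm2b, which binds unmethylated CpG, went the other way in its accession NM_001003953, from 498 and 411 to 108 and 156 normalized counts (−1.79, limma adjusted p = 0.00594). Its other tested accession, NM_013910, was low and overlapped between the genotypes, at 6.21 and 32.7 against 12.1 and 6.32 (−0.67, limma adjusted p = 0.612). Bcorl1, a corepressor of the same complex, was higher (1.07, limma adjusted p = 0.0194). Mga, the DNA-binding partner of PCGF6, was lower (−0.90, limma adjusted p = 0.0338). Hdac1, a histone deacetylase found with it, was lower as well (−2.35, limma adjusted p = 0.00232), and a named pseudogene copy makes its reads uncertain. When either of the H1-TKO libraries was left out, Kdm2b and Hdac1 passed, and Pcgf1, Bcorl1 and Mga did not (adjusted p between 0.143 and 0.245).

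None of the 5 H2AK119 deubiquitinase genes passed with limma, edgeR or DESeq2, and 1 had an unadjusted p under 0.05 (median log2 fold change −0.10), although Bap1 did without WT replicate 1, and Usp16 and Asxl2 did without WT replicate 2 (adjusted p = 0.00526, 0.0136 and 0.0433). Of 3 cell cycle inhibitor genes known as PRC1 targets, Cdkn2a and Cdkn2b were tested, and neither passed with limma, edgeR or DESeq2, although both had an unadjusted p under 0.05. Cdkn2a had 37.2 and 75.3 (WT) against 25.3 and 14.7 (H1-TKO) normalized counts (limma adjusted p = 0.0986). Cdkn2b had 22.5 and 21.8 against 54.0 and 48.4 (limma adjusted p = 0.0823), and passed with either WT library left out (adjusted p = 0.0325 without replicate 1 and 0.0456 without replicate 2). Without WT replicate 1 that of Cdkn2a was 0.00158.

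**Figure D5:**
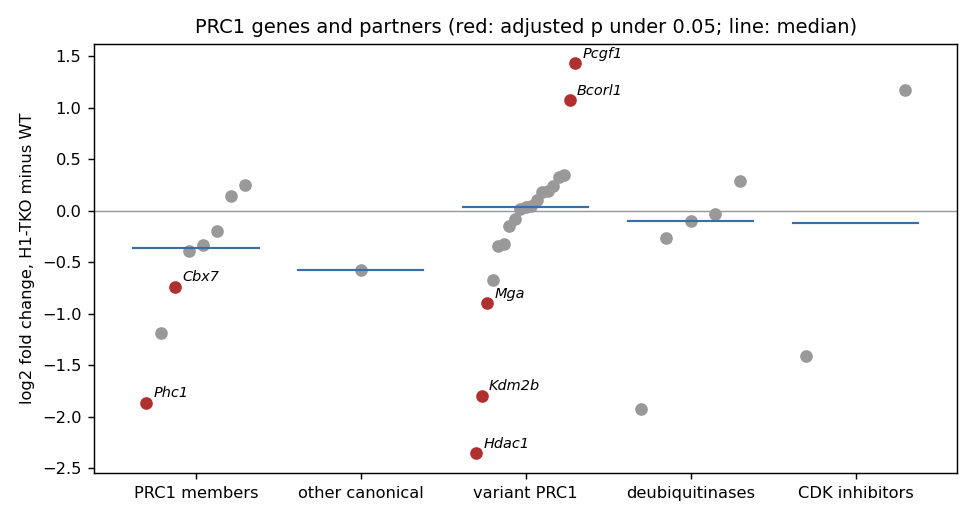
Log2 fold change, H1-TKO minus WT with genotypes as the tables name them, of each tested accession in 5 gene lists, with called accessions in red and the list median as a line. Calls occur among the 9 genes (Cbx7 and Phc1, both lower) and the variant PRC1 subunits (3 lower and 2 higher), and the medians are −0.36 and 0.03.

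Markers of cell types also differed between the genotypes. Of all accessions tested, 9.84% were called higher and 10.7% lower. The summed normalized counts of 13 embryonic stem cell markers were 41754 and 52617 (WT) against 63687 and 64252 (H1-TKO), with 5 of 11 tested called higher and 2 lower. Nanog was at 0 in all its accessions and Esrrb at 3.27 or below, and both have several accessions. The sum of 6 neuroectoderm markers was 3853 and 2298 (WT) against 818 and 882 (H1-TKO), with 2 of 3 tested called lower. Nes (2920 and 849 against 204 and 224) and Tubb3 (915 and 1399 against 600 and 634) made up most of this sum, and the WT libraries lay far apart for Nes. That of 8 endoderm markers was 1332 and 1697 against 895 and 826, with 1 of 3 lower, and most of that sum was Lama1 (1272 and 1665 against 874 and 785). That of 7 mesoderm markers was 212 and 147 against 84.8 and 52.7, with no limma call among 4 and 1 by DESeq2. Hand1 carried most of the mesoderm difference (175 and 63.3 against 36.4 and 4.21), and T (log2 fold change 0.56, limma adjusted p = 0.536) and Mixl1 (0.49, 0.629) had positive values. The 10 fibroblast markers summed to 591 and 498 (WT) against 513 and 581 (H1-TKO), with 3 of 5 tested called lower and 1 higher. Postn and Dcn were at 0 in all libraries. The near-equal sums hide opposite changes, since Thy1, also found on other cell types, was higher (109 and 125 against 449.5 and 511), whereas Acta2 (217 and 180 against 2.204 and 0), Col1a1 (196 and 148 against 34.2 and 53.7) and Twist1 (19.4 and 19.6 against 1.10 and 0) were lower. Their part in the values of the PRC1 genes was not tested.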

How the data were processed

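RNA-seq reads were mapped by the authors to mm9 genes with Subread, counted with featureCounts where unique, and scaled with DESeq2. The deposited signal is this normalized count per RefSeq accession, 1 table per library. Dividing by the value of a single read gave whole numbers for 100% of values, within 0.01, and these reads served edgeR 4.0.16 and DESeq2 1.42.0 as alternatives. Symbols, but no coordinates, were taken from RefSeq on GRCm38.p6 (33650 of 34010 accessions matched). The test was limma 3.58.1 (R 4.3.3) with a trend, on log2 values with a pseudocount of 1, which understate changes of low genes, and with 2 libraries per genotype. The limma step was also run on simulated counts that had the same dispersion in both genotypes. In the data the standard deviation of the log2 difference between replicates was 0.737 in WT and 0.520 in H1-TKO. The simulation therefore does not test the calls given here. Intervals and limits from a count of 0 (3 reads) cover counting error or library spread only.

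ChIP-seq reads were aligned by the authors with bowtie2 (mm9), and MACS gave the peaks and their deposited score. The score is not corrected for the fly spike-in and follows read depth, which the peak lists do not hold. Starts, exons and sequences came from GENCODE M1 on NCBIM37, the same build. Python 3.11.15, pandas 2.3.3, numpy 2.4.6 and matplotlib 3.10.9 were used.

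The genes and lists were chosen with earlier results of these data known. Named genes are the 9 genes, genes of the lists that passed the threshold, close paralogs, the knocked-out and other linker histone genes and cell type markers. Scmh1, Bap1, Usp16, Asxl2, Cdkn2a and Cdkn2b are named from the lists although they did not pass the threshold in the main fit. Npcd is named for its overlap with Cbx6, and Commd3 is said to be named after its values were seen. One gene was left out of the lists, and the sequence of one peak is not used here. Of the Rnf2 peaks, the sequences of the H1-TKO peak over exon 3 and the WT peak over exon 6 are not shown. The pseudocount, the filter, the scaling, the test, the replicate block, each library, and the peak window, score and overlap were varied as alternatives.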

Additional observations from a re-analysis of the deposited data

How the results depend on the processing

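Each RNA value of the 8 tested genes was recomputed with other pseudocounts, filters, scalings and tests, relative to the chromosome, with a replicate block and without each library. Of these 117 values 100 kept their direction and side of the threshold, 7 lost a call, 8 gained one and 2 turned direction. The values that turned were Cbx2 (0.069) and Rnf2 (−0.27), both with the chromosome's median level removed from each library. The genes called lower (2) became 0 without a trend, 1 at a mean of at least 100 (where Phc1 was not tested) and 1 with no filter, and ranged from 0 to 5 when a library was left out. Those called higher (0) ranged from 0 to 2. Leaving out a library assumes that the lone library of that genotype varies like the other genotype. Across accessions, 1094 higher and 1188 lower became 43 and 37 without a trend and 624 and 697 with no filter. They ranged from 199 to 2682 and from 386 to 2786 with a library left out, lowest without an H1-TKO library and highest without a WT library. The genes called in the other lists, which hold PRC1 subunits, deubiquitinases and cell cycle inhibitors (2 higher, 3 lower in all), became 0 and 1 without a trend and ranged from 0 to 6 and from 2 to 7 with a library left out. Peaks at a score of at least 100 were within 2 kb of 1 gene in WT and 0 in H1-TKO, and with the gene body included 4 genes had a peak in each list. The share of all protein-coding genes with a peak was taken only for the main window of 2 kb. Within 5 kb of a start 3 genes had a peak in each list, and within 1 kb 2 genes had one in each. The lists thus differed in number within 2 kb, but not in the narrower window or in these wider ones. The cause of these shifts was not tested.

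The replicate numbers did not pair the libraries (correlation of replicate differences 0.011). With a replicate block 1521 accessions were higher and 1778 lower, 2270 of them shared with the calls without it, and 3 of the genes were lower, as Bmi1 passed (adjusted p = 0.042). Of the other genes named, Cdkn2a (0.038), Hist1h1d (0.031), Hist1h1b (0.0148), Pou5f1 (0.0431) and Hand1 (3.91e-07) passed with the block and not without it.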

Other observations

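The 300 bases before the main start held a median of 27 CpG dinucleotides over the 9 genes, from 5 (Phc1) to 39 (Ring1), against a median of 10 over 22366 such stretches of protein-coding genes. Rnf2 had 37, Cbx2 31, Bmi1 29, Cbx8 27, Cbx7 26, Pcgf6 16 and Cbx6 8. Cbx2 and Bmi1, with a WT peak within 2 kb, and Rnf2 and Cbx7, with none, were thus all above the median of these stretches. The main start is that of the longest coding transcript, and for Phc1 and Cbx6 other annotated starts were not examined.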
